A study of Mus musculus with 2 samples.

Results

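The Mir302-Mir367 cluster is a set of 5 miRNA genes, Mir302a, Mir302b, Mir302c, Mir302d and Mir367. They were followed here in limb tissue of mouse embryos at embryonic day 10.5. The members were taken as the rows whose Ensembl identifier carries one of these symbols in the GENCODE M21 annotation of GRCm38, and all 5 were found among the 1973 miRNA genes of the tables. The data are small-RNA sequencing counts from 2 libraries of 1 group: limbs of B6NCrl embryos of both sexes, with 69 embryos pooled for replicate 1 and 51 for replicate 2. The labels call them biological replicates and name no treatment or mutation, so every comparison is between genes or between these 2 pools.

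miRNAs are short RNAs cut from hairpin precursors, and they lower the output of messenger RNAs that pair with their seed, the bases near the 5′ end. The Mir302 genes are best known from pluripotent and early embryonic cells, where Oct4 and Sox2 bind the promoter of their shared primary transcript and the mature miRNAs act on cell cycle inhibitors such as Cdkn1a and on the Nodal pathway. They decline as cells differentiate, while let-7 miRNAs rise. At this age the limb is a bud of mesenchyme under an ectodermal layer.

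The hairpins lie within 580 bases of chromosome 3 on the plus strand (GRCm38). Mir302b comes first (127545228 to 127545301), followed by Mir302c (127545363 to 127545430), Mir302a (127545496 to 127545564), Mir302d (127545624 to 127545689) and Mir367 (127545733 to 127545807). Gaps of 43 to 65 bases separate them, and each hairpin is 66 to 75 bases long. The cluster sits inside Larp7 (127536714 to 127553349), which is on the minus strand and encodes a binding protein of 7SK RNA. All 5 hairpins fall in intron 8 of its principal transcript, and no annotated Larp7 exon overlaps one. The miRNA genes are thus antisense to Larp7.

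The mature arms are shown because their seeds split the cluster into groups. Sequences are RefSeq's (GRCm38.p6), written 5′ to 3′ with bases 2 to 8 in capitals. The 3p arms were as follows, and miR-302a-3p was not analysed here.
miR-302b-3p: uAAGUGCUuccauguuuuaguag
miR-302d-3p: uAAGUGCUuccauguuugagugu
miR-302c-3p: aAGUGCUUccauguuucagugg
miR-367-3p: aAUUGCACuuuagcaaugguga
The 5p arms were as follows.
miR-302b-5p: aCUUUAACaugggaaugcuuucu
miR-302c-5p: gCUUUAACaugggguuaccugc
miR-302d-5p: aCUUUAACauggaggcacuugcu
miR-302a-5p: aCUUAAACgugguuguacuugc
miR-367-5p: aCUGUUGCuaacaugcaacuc

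The 3p arms of Mir302b and Mir302d share the seed AAGUGCU, whereas the annotated miR-302c-3p starts 1 base later and has AGUGCUU at bases 2 to 8. Counted from the 5′ end of miR-302b-3p, miR-302d-3p differs at 3 of 23 bases (U18G, A22G and G23U) and miR-302c-3p at 2 of 22 (U18C and A22G). Both pairs share an unbroken run, of 17 and 16 bases. A read wholly inside such a run cannot be given to 1 of those genes, whereas the 5p arms of the Mir302 genes differ at 5 to 7 bases. The counts hold both arms together, so the arm behind the split between members is not known. Each of the 9 mature sequences above occurs in 1 of the 1005 mouse hairpins in the RefSeq table, its own. Mir367 has an unrelated seed, AUUGCAC.

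The 4 Mir302 genes were well covered in both libraries and Mir367 had only a few uniquely placed reads. Multimapping reads are counted at no gene, and matches of the Mir367 sequence outside annotated hairpins were not searched. Counts are reads on the sense strand of a hairpin, with both arms together, and CPM are counts per 1000000 sense counts in miRNA genes, of which there were 3581672 in replicate 1 and 3576482 in replicate 2. A count of 0 would allow up to 0.838 and 0.839 CPM (3 counts). All intervals are 95% exact binomial and cover counting error of reads only. PCR copies are not independent molecules, so the intervals can be too narrow even for counting error. Reads are the scale of the comparisons between genes, and values per base of hairpin are given after them.

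Mir302a had the most reads, with 8191 counts (2287 CPM) in replicate 1 and 3247 (908 CPM) in replicate 2, a mean of 1597 ± 975 CPM (SD, n = 2). Mir302d had 5975 counts (1668 CPM) and 2356 (659 CPM), with a mean of 1163 ± 714 CPM. Mir302b had 5918 counts (1652 CPM) and 1712 (479 CPM), with a mean of 1065 ± 830 CPM. The value of each of these 3 genes in replicate 2 lay below the values of all 3 in replicate 1, so across the pools the values of these genes overlap. Within each library Mir302a was above the other 2. Mir302c, whose annotated 3p arm has the shifted seed, was lower in both libraries, with 1059 counts (296 CPM) and 378 (106 CPM), a mean of 201 ± 134 CPM. Its higher library was still below the lower library of Mir302b. Per base of hairpin the order was the same in both libraries: Mir302a had 33.1 and 13.2 CPM per base, Mir302d 25.3 and 9.98, Mir302b 22.3 and 6.47, and Mir302c 4.35 and 1.55. Mir367, the last hairpin of the cluster, had 1 count in replicate 1 (0.279 CPM, 0.00707 to 1.56) and 5 counts in replicate 2 (1.40 CPM, 0.454 to 3.26). No antisense read was counted at any of the 5 hairpins in either library.

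**Figure D1:**
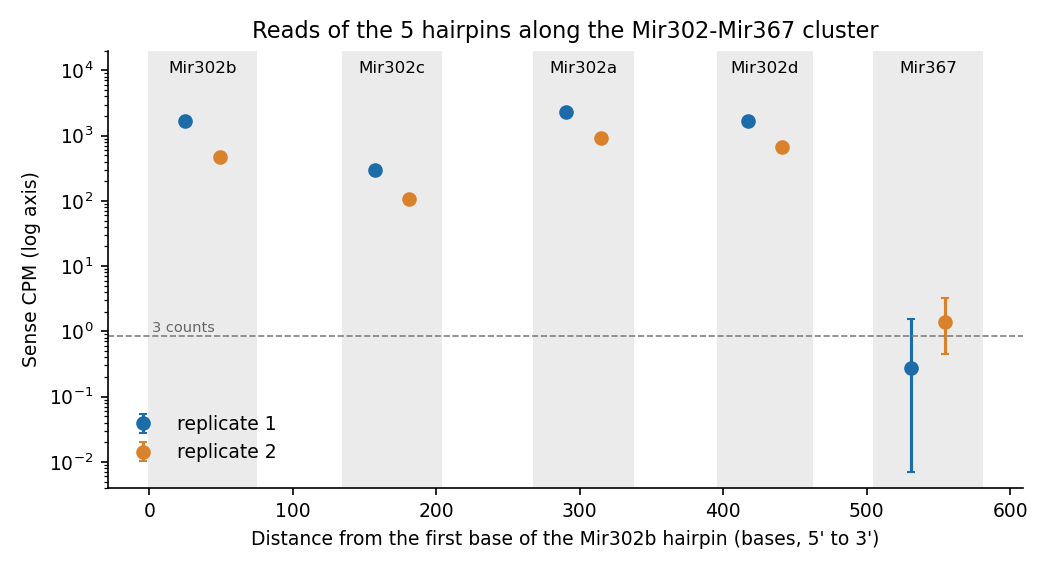
Sense CPM of each hairpin (log axis) against its distance in bases from the first base of Mir302b, with 1 point per library, bars for the 95% exact binomial interval, grey bands for the hairpins and a dashed line at 3 counts. The 4 Mir302 hairpins lie between 106 and 2287 CPM and Mir367 near the line, at 0.279 and 1.40 CPM.

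Together the 5 genes held 0.590% of the counts in replicate 1 and 0.215% in replicate 2, a mean of 4028 ± 2652 CPM. Among the 1973 genes Mir302a ranked 60 in replicate 1 and 94 in replicate 2, Mir302d 70 and 106, Mir302b 72 and 114, and Mir302c 145 and 183. Mir367 ranked 566 and 413, at a level of a few reads where ranks are set by single counts. Levels of the Mir302 genes did not follow position: Mir302a, the third hairpin, was above Mir302b at the start, and the second hairpin, Mir302c, was the lowest of them. Mir302d, the fourth, was nearly equal to Mir302b in replicate 1 and above it in replicate 2. Mir367, the last hairpin, had the fewest reads of the cluster.

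The composition of the cluster does not depend on how the libraries are scaled. Mir302a made up 38.7% of the cluster's counts in replicate 1 (38.1 to 39.4) and 42.2% in replicate 2 (41.1 to 43.3). Mir302d made up 28.3% (27.7 to 28.9) and 30.6% (29.6 to 31.6). Mir302b moved the other way, from 28.0% in replicate 1 (27.4 to 28.6) to 22.2% in replicate 2 (21.3 to 23.2). For these 3 genes the intervals of the libraries did not overlap. The shares of a library add up to the whole, so these are not 3 separate changes. Mir302c held 5.01% (4.72 to 5.31) and 4.91% (4.44 to 5.42), with overlapping intervals. Mir367 held 0.00473% (0.000120 to 0.0263) and 0.0650% (0.0211 to 0.152).

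**Figure D2:**
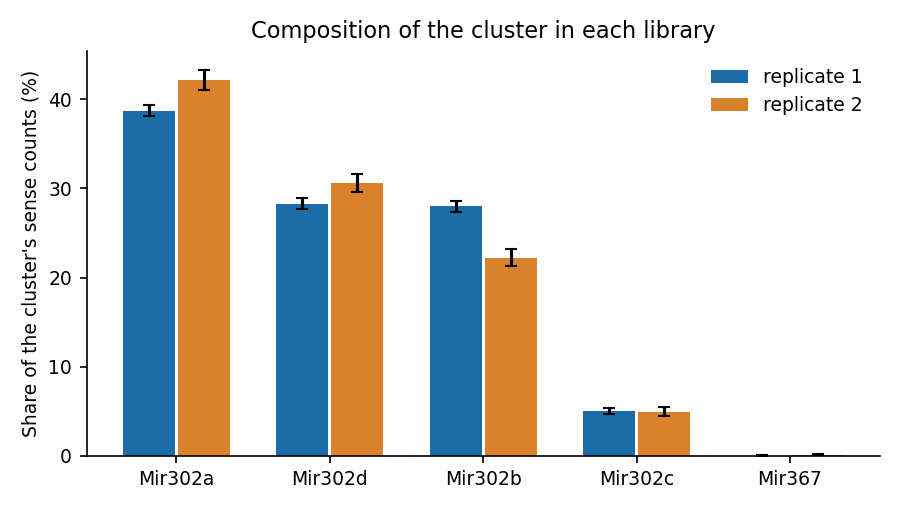
Share of the cluster's sense counts held by each member (%, bars from 0) in replicate 1 and replicate 2, with 95% exact binomial intervals. Mir302b drops from 28.0% to 22.2% while Mir302a and Mir302d are higher in replicate 2, and Mir302c stays near 5%. Shares add up to the whole of a library, so they do not vary separately.

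All 10 ratios between 2 members were taken within each library. Mir302a over Mir302d was 1.37 in replicate 1 (1.33 to 1.42) and 1.38 in replicate 2 (1.31 to 1.45), a log2 change of 0.01 (-0.08 to 0.10). Mir302d and Mir302b had nearly equal counts in replicate 1, with a ratio of 1.01 (0.974 to 1.05), and apart in replicate 2, with 1.38 (1.29 to 1.47). Mir302a over Mir302b went from 1.38 (1.34 to 1.43) to 1.90 (1.79 to 2.01), a log2 change of 0.45 (0.36 to 0.55). Mir302b over Mir302c went from 5.59 (5.23 to 5.97) to 4.53 (4.05 to 5.08). Mir302a over Mir302c was 7.73 (7.25 to 8.25) and 8.59 (7.72 to 9.58), with overlapping intervals. The intervals of the 2 libraries were apart for 4 of the 10 pairs, and those 4 were the pairs that include Mir302b, with Mir302b over Mir367 apart by a narrow margin (1062 at the lower end in replicate 1 and 1056 at the upper end in replicate 2). By the interval of the change itself, 0 lay outside it for every pair with Mir302b and also for every pair with Mir367. These intervals set the 2 pools against counting error alone.

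**Figure D3:**
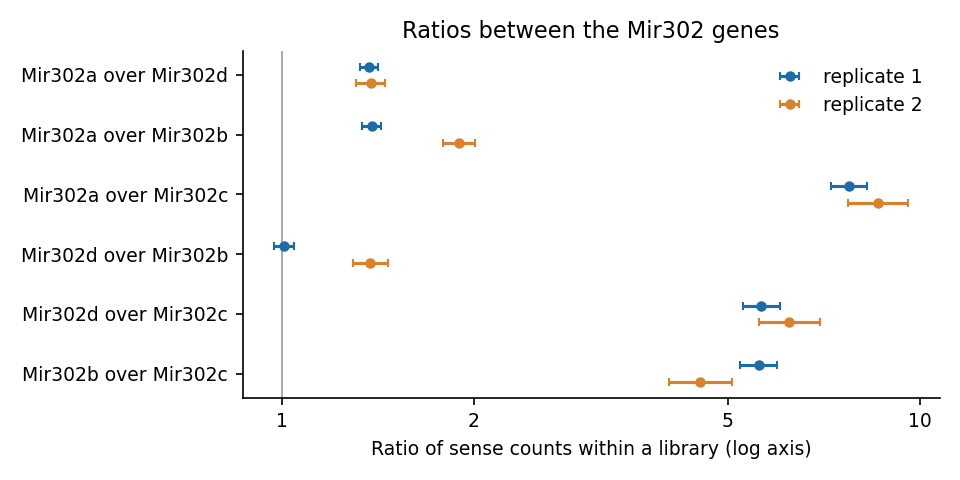
Ratios of sense counts between 2 Mir302 genes within a library (log axis), 1 point per library with the 95% exact binomial interval, and a vertical line at equal counts. The points for Mir302a over Mir302d coincide at 1.37 and 1.38, whereas the 3 pairs with Mir302b shift between the libraries.

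Mir367 had far fewer reads than its neighbour Mir302d, which ends 43 bases before it. The ratio of Mir302d to Mir367 was 5975 in replicate 1 (1072 to 236039) and 471 in replicate 2 (202 to 1453). Against Mir302c, the lowest of the other members, the ratio was 1059 (190 to 41867) and 75.6 (32.1 to 234). The 2 hairpins are shown in full, because they lie side by side and differ more in reads than any other neighbours, with the 3p arm in capitals.
Mir302d: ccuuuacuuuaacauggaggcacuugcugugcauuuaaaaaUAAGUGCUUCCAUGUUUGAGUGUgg
Mir367: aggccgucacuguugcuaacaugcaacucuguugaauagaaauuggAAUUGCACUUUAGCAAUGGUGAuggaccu

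The predicted minimum free energy (RNAfold) was -27.5 kcal/mol for the Mir302d hairpin and -34.5 kcal/mol for Mir367, the lowest of the 5. Mir302a had -31.7, Mir302c -28.6 and Mir302b -23.3 kcal/mol. G and C made up 39.2% to 47.1% of the hairpins, with Mir367 at 42.7%. Mir367 is also the longest of the 5 hairpins. Per base the predicted energy was nearly the same for Mir367 (-0.46 kcal/mol) and Mir302a (-0.459 kcal/mol). The composition of Mir367 lay within the range of the others. The part of folding in the read counts was not tested.

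All 4 Mir302 genes were lower in replicate 2 than in replicate 1, each by over 2-fold. Among the 250 genes that averaged 100 counts or more, 167 (66.8%) were lower in replicate 2. Of these 250 genes, 24 (9.60%) were lower by over 2-fold and 3 were higher by over 2-fold. The log2 ratio of replicate 2 over replicate 1, on CPM with a prior count of 1, was -1.79 for Mir302b (-1.87 to -1.71), -1.48 for Mir302c (-1.66 to -1.31), -1.34 for Mir302d (-1.41 to -1.27) and -1.33 for Mir302a (-1.39 to -1.27). On the CPM scale Mir302b was 3.45-fold lower, Mir302c 2.80-fold, Mir302d 2.53-fold and Mir302a 2.52-fold. The interval of Mir302b did not meet those of the other 3, which overlapped one another. The cluster as a whole went from 5903 to 2152 CPM, a log2 ratio of -1.46 (-1.49 to -1.42). These pools are replicates of 1 group, so this difference is itself the spread between replicates, and no test between conditions exists. In bulk tissue, fewer cells with these miRNAs and less miRNA per cell cannot be told apart.

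The median log2 ratio of the 250 genes was -0.27 and the SD 0.66, with the 5th and the 95th percentile at -1.32 and 0.61. Relative to that median the Mir302 genes stood at -1.52 (Mir302b), -1.21 (Mir302c), -1.07 (Mir302d) and -1.06 (Mir302a). From the lowest ratio upwards they took ranks 7, 9, 12 and 13 of 250. With edgeR's TMM scaling all ratios shift by 0.29, and the split of genes over 2-fold becomes 14 lower and 6 higher. The point values of the 4 members remain below -1, from -1.04 to -1.50. The TMM intervals of Mir302a (-1.10 to -0.98) and Mir302d (-1.12 to -0.98) include -1. Per read of the whole library the shift is 0.48 and the split turns to 9 lower and 18 higher. Mir302a (-0.86) and Mir302d (-0.86) were then under 2-fold, while Mir302b (-1.31) was over it and Mir302c lay almost at 2-fold, just past it (interval -1.18 to -0.84). Unmapped reads, which enter that denominator, were 32.3% in replicate 1 and 18.6% in replicate 2. Their part in the difference was not tested.

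Mir367 had the higher count in replicate 2, with a ratio of 5.01-fold (0.560 to 237) from 6 reads in all. This interval spans 1. Against Mir302a, the change of the ratio Mir302a over Mir367 was -3.66 on the log2 scale, with a wide interval (-9.22 to -0.50) that rests on those 6 reads.

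**Figure D4:**
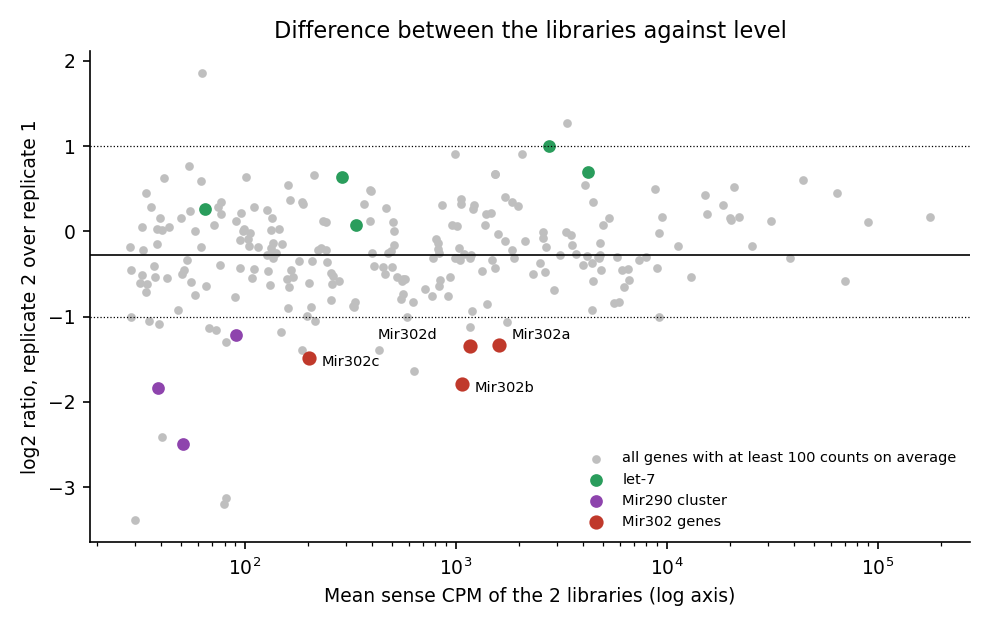
log2 ratio of replicate 2 over replicate 1 against mean CPM (log axis) for the 250 genes that averaged 100 counts or more, with the Mir302 genes in red, the Mir290 cluster in purple and let-7 in green, the median of all genes as a solid line and 2-fold as dotted lines. The 4 Mir302 genes lie between -1.33 and -1.79, at ranks 7 to 13 from the lowest, and the 5 let-7 genes lie above the median.

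The genes nearest to the summed cluster in their ratio, over 2 libraries, were Mir6236 at -1.39, Mir493 at -1.39, Mir19b-1 at -1.30, Mir92-2 at -1.64 and Mir293 at -1.22. They lie on chromosomes 9, 12, 14, X and 7. Mir19b-1 and Mir92-2 have mature sequences with a second genomic copy, so their counts of uniquely placed reads are uncertain. With 2 libraries, likeness means a similar single ratio and no more.

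The Mir290 cluster on chromosome 7, the other large miRNA cluster of early embryonic cells, carries related seeds and was also lower in replicate 2. Mir291a, Mir294 and Mir295 share AAGUGCU with Mir302b and Mir302d, and their 3p arms are shown for comparison.
miR-291a-3p: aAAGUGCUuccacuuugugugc
miR-294-3p: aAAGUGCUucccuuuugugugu
miR-295-3p: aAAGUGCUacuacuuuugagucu

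Mir294 had 309 counts in replicate 1 and 54 in replicate 2, a log2 ratio of -2.49 (-2.96 to -2.09). Mir291a had 59 and 13 counts (-2.10, interval -3.17 to -1.30) and Mir295 had 31 and 14 (-1.09, interval -2.17 to -0.19). Of the genes of this cluster with other seeds, Mir293 had 456 and 195 counts, Mir292 had 218 and 60, Mir291b had 27 and 17, and Mir290a had 4 and 0. Point values were lower in replicate 2 for all 7 genes, with the interval of Mir291b (-1.63 to 0.26) including 0, as does that of Mir290a, whose upper end is 0.60. Only 3 of the 7 averaged 100 counts or more, and of all 250 genes at that level 167 (66.8%) were lower. The Mir290 cluster totalled 308 and 98.7 CPM, a log2 ratio of -1.64 (-1.82 to -1.47), an interval that overlaps that of the Mir302-Mir367 cluster. Mir302-Mir367 reads exceeded those of the Mir290 cluster 19.2-fold in replicate 1 and 21.8-fold in replicate 2.

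The letters AAGUGCU are not restricted to these 2 clusters. miR-302a-3p was not analysed here, so Mir302a is in none of the groups that follow. Among 1679 mature mouse miRNAs in the RefSeq table, 15 (0.893%) have them starting at base 1, 2, 3 or 4 (searched in the mature RNA only). They start at base 1 in miR-302c-3p, at base 2 in the 3p arms of Mir302b, Mir302d, Mir291a, Mir294 and Mir295, and at base 3 in 8 miRNAs. The last group includes the growth-associated Mir17 family: Mir17, Mir20a, Mir20b, Mir93, Mir106a and Mir106b. One of each offset is shown with the 7 letters in capitals.
miR-302c-3p: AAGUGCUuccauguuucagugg
miR-302b-3p: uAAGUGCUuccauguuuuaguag
miR-17-5p: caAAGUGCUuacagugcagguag

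Genes of the searched arms with the letters at base 2 totalled 3432 CPM in replicate 1 and 1160 CPM in replicate 2. Mir302b and Mir302d made up 3321 and 1137 CPM of these totals. Genes with the letters at base 3 totalled 146545 and 156849 CPM, a sum led by Mir17 with 86997 and 93602 CPM (log2 ratio 0.11) and Mir20a with 29766 and 32379 CPM. Mir106a (4035 and 3358 CPM, -0.26) and Mir20b (2095 and 1689 CPM, -0.31) were lower in replicate 2 on the CPM scale, by about the 0.29 that TMM scaling adds. Mir106b had 9220 and 9136 CPM, a log2 ratio of -0.01 (-0.04 to 0.01). Counts are per hairpin, so these totals also hold reads of the other arm.

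The seed of miR-367-3p is carried by 6 other genes, whose reads far exceeded those of Mir367. Mir92-1 had 12187 and 6100 CPM, Mir363 had 2366 and 1135, Mir25 had 858 and 778, Mir92-2 had 954 and 306, Mir92b had 515 and 385, and Mir32 had 240 and 205 CPM. Together they had 17120 CPM in replicate 1 and 8909 CPM in replicate 2, against 0.279 and 1.40 CPM for Mir367. Mir92-1 and Mir92-2 encode the same mature miR-92a-3p, and a read that fits both loci is in neither count, so their values are uncertain. Log2 ratios ran from -1.64 (Mir92-2) to -0.14 (Mir25). Mature arms of Mir363 and Mir25 are set beside that of Mir367, because the seed is shared and the remaining bases differ.
miR-367-3p: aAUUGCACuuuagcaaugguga
miR-363-3p: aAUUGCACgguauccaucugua
miR-25-3p: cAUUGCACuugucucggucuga

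The let-7 genes, which increase as embryonic cells differentiate, differed between the pools in the opposite direction. The 10 analysed here, with Mir98 counted among them, totalled 5732 CPM in replicate 1 and 9769 CPM in replicate 2. The Mir302-Mir367 cluster thus had nearly the same total as let-7 in replicate 1, 1.03-fold, and 0.220-fold in replicate 2. The 5 let-7 genes that averaged 100 counts or more all had higher values in replicate 2, whereas 167 (66.8%) of all 250 genes at that level were lower. The median log2 ratio of the 5 let-7 genes was 0.64, the value of Mir98. The intervals of Mirlet7d (-0.04 to 0.19) and Mirlet7f-2 (-0.01 to 0.53) include 0. Mirlet7g, the most abundant, had 3240 and 5259 CPM, and Mirlet7i had 1834 and 3686 CPM. Mirlet7g and Mirlet7i together held most of the let-7 total in both libraries. Several let-7 genes have copies elsewhere in the genome, and reads that fit several copies are counted at no gene. Their counts, and with them the let-7 total, can therefore be too low. The lead of Mirlet7g and Mirlet7i and the ratio of the cluster to let-7 hold for uniquely placed reads only.

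For markers of limb mesenchyme and of cell types that a dissected limb can hold, list medians lay closer to 0 than the median of the Mir302 genes (-1.41), while single genes moved as far. The median log2 ratio was 0.30 for limb mesenchyme (6 genes averaging 100 counts or more, led by Mir214 with 16591 and 20513 CPM), -0.08 for the 6 Hox cluster genes (led by Mir10b) and -0.35 for epithelium (7 genes, led by Mir205). Those 6 mesenchyme genes were Mir214, Mir143, Mir199b, Mir22, Mir199a-2 and Mir145a, of which only Mir22 was lower in replicate 2 (-0.76). It was 0.20 for neural genes (7, led by Mir7-1), -0.20 for gut with liver and pancreas (3, led by Mir375) and -0.28 for leukocytes (2, led by Mir155). The single genes were Mir126a of endothelium at -0.17 and the erythroid Mir451a at -0.88. In these lists no gene averaging 100 counts or more was over 2-fold lower, against 24 (9.60%) of all 250 genes at that level. At that share, lists this short would hold few such genes or none. Below that level, Mir219a-2 of the neural list had 141 and 24 counts (-2.50, interval -3.24 to -1.92) and Mir122 of the liver had 89 and 20 (-2.10, interval -2.93 to -1.44), both named after their values were seen. Mir219a has a second genomic copy, so its count is uncertain. The heart and skeletal muscle list had Mir208b, from 138 to 68 counts (-1.01), and Mir206, from 96 to 350 counts (1.86), both named after their values were seen. In the Mir17 family clusters 3 of 14 genes were over 2-fold lower (Mir92-2, Mir19b-1 and Mir363), beside 9.60% of all 250 genes, with a median of -0.29.

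For the labelled tissue, all 6 Hox cluster genes and 6 of 7 mesenchyme genes averaged 100 counts or more, as did 7 of 7 epithelial genes, 7 of 16 neural genes and 250 of all 1973 genes. By summed level, the erythroid list went from 480 to 269 CPM, the gut list from 1234 to 1061, epithelium from 12334 to 10775, mesenchyme from 24188 to 28717, and the neural list from 578 to 564 CPM. The muscle list went from 84.0 to 133 CPM. In the neural list 3 of 16 genes (the Mir124a genes) and in the muscle list 3 of 8 (Mir1a-1, Mir133a-1 and Mir133a-2) were at 0 in both libraries, but these have several genomic copies, so a 0 sets no limit. Most other neural genes also have numbered copies, such as Mir7-1 and Mir7-2 or Mir128-1 and Mir128-2. So do Mir196a of the Hox list and Mir199a of the mesenchyme list. Reads that fit several copies are counted at no gene. The 7 of 16 and the neural total can therefore be too low, and a low neural content cannot be read from them. Limb mesenchyme reads were 4.10-fold those of the Mir302-Mir367 cluster in replicate 1 and 13.3-fold in replicate 2. The part of these lists in the difference of the Mir302 genes was not tested.

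**Figure D5:**
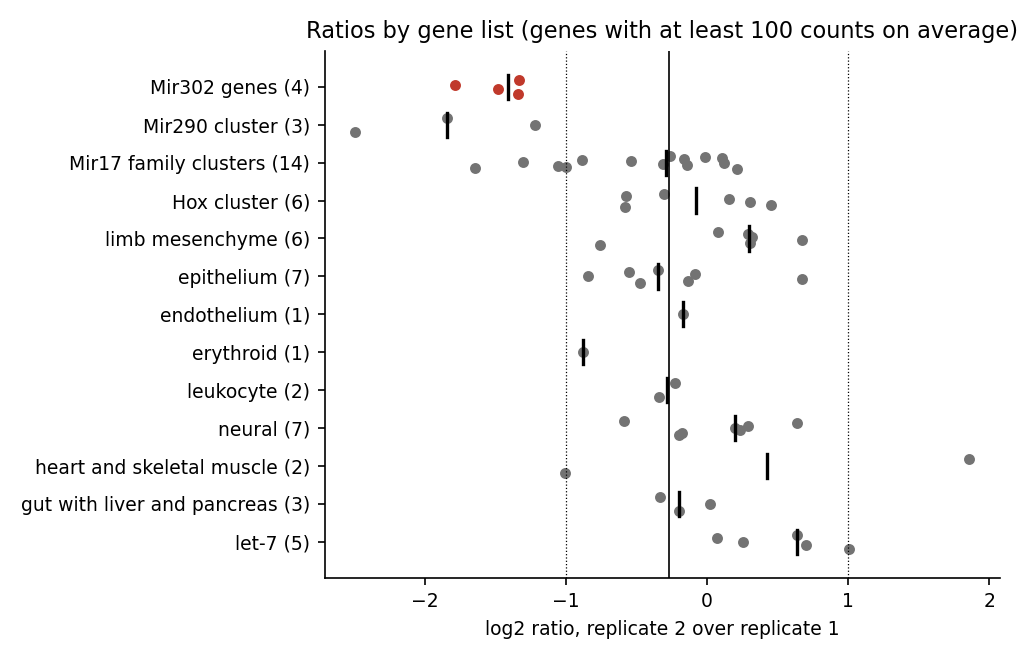
log2 ratio of replicate 2 over replicate 1 for each gene that averaged 100 counts or more (points, number in brackets) and the median (short bars) by list, with the median of all 250 genes as a solid line and 2-fold as dotted lines. All 4 Mir302 genes and the 3 Mir290 genes lie beyond 2-fold lower, among 24 (9.60%) of all 250 genes, and the let-7 genes lie above 0. Medians of the other lists run from -0.88 (erythroid, 1 gene) to 0.42 (heart and skeletal muscle, 2 genes). The medians of limb mesenchyme (0.30) and neural genes (0.20) also lie above 0.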

How the data were processed

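The deposited tables give raw read counts per miRNA gene for each of 2 small-RNA libraries. Per the deposited readme texts, reads were aligned to mm10 and counted over GENCODE M4, 1 alignment per library without pooling. Read trimming, the aligner and the counter were not given in the sources used here. By their values, the 3 count columns are both strands, sense and antisense, and 4 further rows hold the reads that no gene received (unmapped, multimapping, ambiguous or outside genes). Multimapping reads, 21.9% and 25.4% of all reads, are thus counted at no gene. Read totals were 10064833 and 7218612.

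Sense counts were scaled to CPM over all gene rows. Symbols and positions came from GENCODE M21 (GRCm38, the same build), which matched 1894 of 1973 identifiers, with identical ID versions for all 5 members. Sequences came from RefSeq (GRCm38.p6). Member intervals are Clopper-Pearson at 95%, and changes of a pair's ratio are conditional exact odds ratios. With 1 group of 2 libraries, no test between conditions was made. Alternatives were edgeR TMM factors, DESeq2 size factors, other denominators, strands, prior counts and filters. The ratio calculations were tested on simulated data that held counting error only, so that test does not cover PCR copies or the spread between pools. Named genes were the members, the Mir290 cluster, genes sharing a seed, the 5 nearest and 5 lowest ratios and the most abundant gene of each of 12 lists. Members and lists were chosen with earlier results of these data known. Tools were RNAfold 2.7.2, Python 3.11.15 with scipy 1.17.1, pandas 2.3.3 and numpy 2.4.6, and R 4.3.3 with DESeq2 1.42.0 and edgeR 4.0.16.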

Additional observations from a re-analysis of the deposited data

How the results depend on the processing

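The log2 ratio of the summed cluster, -1.46 as reported, was -1.17 with edgeR TMM factors, -1.18 with DESeq2 size factors, -0.98 per read of the whole library, and, in alternatives chosen after seeing the data, -1.24 per mapped read and -1.18 with the median of all genes set to 0. It was -1.54 without Mir302a, -1.34 without Mir302b and -1.50 without Mir302d in the sum. It changed within its interval without Mir302c or Mir367, with both strands and with a prior count of 5. Per read of the whole library Mir302a and Mir302d came under 2-fold, which left 2 members over 2-fold lower in place of 4. Genes over 2-fold lower numbered 24 as reported, 14 with TMM, with DESeq2 factors and with the median set to 0, 15 per mapped read, 9 per read of the whole library, 46 of 360 at 10 counts on average and 122 of 1973 without a filter. The scalings add 1 constant to every log2 ratio, at most 0.48, so member shares and pair ratios stay as given. The mean level of the cluster, 4028 CPM, was 1584 CPM with the whole library as the denominator. The cluster's level is 2152 CPM from replicate 2 alone and 5903 CPM from replicate 1 alone, and no ratio between libraries exists without either. Among the members only Mir367 had too few reads for its ratio to be read, and the part of depth in this was not tested.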

Other observations

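Genes with the 5 lowest ratios had fewer reads than any of the 4 Mir302 genes. Mir5126 had 198 counts in replicate 1 and 18 in replicate 2, Mir1247 had 514 and 55, Gm26117 had 524 and 59, and Mir6538 had 245 and 45, with Mir294 (309 and 54) from the Mir290 cluster as the fifth. Their log2 ratios ran from -3.39 to -2.42, below that of Mir302b at -1.79. The 5 highest ratios, a set chosen after the values were seen, were those of Mir206 at 1.86, Mir140, known from cartilage, at 1.27, Mirlet7i at 1.01, Mir125b-1 at 0.91 and Mir181b-2 at 0.90.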
